A study of Homo sapiens with 6 samples.

Results

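The genes described here are 27 genes of cholesterol synthesis, of sterol uptake, transport and efflux, and of the SREBP system that controls them. They were chosen by name, with earlier results of these data known, and all 27 had 1 row each among the 60545 genes of the count table. Poly(A) RNA was sequenced from PC3, an established line of human prostate cancer cells kept in RPMI-1640 medium and fetal bovine serum, in 2 groups of 3 libraries. The first group was treated with RSM3, which the series title calls a peptide, and the other is labelled Control. Neither dose nor exposure time nor what the Control cells received is stated in the labels. The serum in which the line is kept supplies lipoprotein cholesterol. The values here do not show whether it was present during the treatment. Whether the libraries of a group came from separate cultures is not stated, so the p-values below reflect sample-to-sample spread that may be technical only.

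Cholesterol is built from acetyl-CoA. The mevalonate pathway makes the isoprenoid farnesyl diphosphate, and squalene and sterol enzymes turn it into cholesterol. When sterols in the endoplasmic reticulum run low, the escort protein SCAP carries the SREBP transcription factors to the Golgi, where proteases free their active part to switch on the synthesis and uptake genes, and the INSIG proteins hold SCAP back when sterols are plentiful. When sterols are abundant, oxysterols activate the LXR receptors, which drive efflux genes such as ABCA1 and the ubiquitin ligase gene MYLIP.

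The libraries held 14091359 to 16036658 counts with RSM3 and 16637873 to 18594251 counts in Control. All 27 genes passed the expression filter, so each was tested. RSM3 replicate 1 stood apart from the other libraries. Across all genes, its deviation in log2 level from the 6-library mean rose with the GC content of the transcript (Spearman correlation 0.418), against -0.321 and -0.289 in RSM3 replicates 2 and 3 and -0.205 to 0.158 in the Control libraries; genes are not independent replicates. Control replicate 3 also differed more from Control replicates 1 and 2 (chi-square per degree of freedom 8.96 and 7.91) than these did from each other (3.80). Markers of the line were present, namely KRT8, KRT18, KRT19, EPCAM, CDH1, CD44 and VIM. They summed to 2334 to 2946 CPM (TMM-scaled counts set to a common library size) with RSM3 and 2455 to 2676 CPM in Control. VIM was the largest, at 902 to 1088 CPM with RSM3 and 856 to 969 CPM in Control. The keratins KRT8, KRT18 and KRT19 ran from 169 to 681 CPM with RSM3 and from 201 to 797 CPM in Control. EPCAM and CDH1 were low, at 4.87 to 11.5 CPM with RSM3 and 5.36 to 9.28 CPM in Control. The leukocyte markers PTPRC, CD3E, CD14 and ITGAM summed to 0.374 to 0.645 CPM with RSM3 and 0.475 to 2.16 CPM in Control, with CD3E at 0 counts in all libraries. The androgen-responsive gene TMPRSS2 was 72.2 to 76.1 CPM with RSM3 and 47.8 to 51.1 CPM in Control and rose (log2 fold change 0.59, edgeR adjusted p = 0.00150), with KLK2 at 0 counts in all libraries; the part of this in the results below was not tested. Among 5 markers of fibroblasts and endothelium, whose sum was 80.2 to 109 CPM with RSM3 and 104 to 117 CPM in Control, DCN had 0 counts throughout. The sum was mostly COL1A1, at 58.3 to 88.2 CPM with RSM3 and 77.5 to 93.8 CPM in Control, and PECAM1, at 19.3 to 21.8 CPM with RSM3 and 23.1 to 26.2 CPM in Control. Their log2 fold changes were -0.27 and -0.25 (edgeR adjusted p = 0.322 and 0.258); their part in the results below was not tested. In RNA from a whole culture, a change within each cell and a change in the mix of cells cannot be told apart.

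Promoters are shown for 4 genes. FDPS, one of the genes that rose, and ABCA1, which fell, were picked with their values known. INSIG1 and SREBF2, neither of which passed the test below, encode part of the control system itself. Each line gives the 250 bases before the RefSeq start site on GRCh38.p14, 5′ to 3′ on the strand of the gene, with capitals marking the motifs searched. FDPS is at chr1:155308616-155308865 (plus strand), INSIG1 at chr7:155297628-155297877 (plus), SREBF2 at chr22:41832855-41833104 (plus) and ABCA1 at chr9:104928156-104928405 (minus).
FDPS: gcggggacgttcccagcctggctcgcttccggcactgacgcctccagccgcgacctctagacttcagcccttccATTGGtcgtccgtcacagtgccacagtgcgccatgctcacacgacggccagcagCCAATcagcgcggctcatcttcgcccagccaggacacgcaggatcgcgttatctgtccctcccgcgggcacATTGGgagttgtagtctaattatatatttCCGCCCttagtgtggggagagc
INSIG1: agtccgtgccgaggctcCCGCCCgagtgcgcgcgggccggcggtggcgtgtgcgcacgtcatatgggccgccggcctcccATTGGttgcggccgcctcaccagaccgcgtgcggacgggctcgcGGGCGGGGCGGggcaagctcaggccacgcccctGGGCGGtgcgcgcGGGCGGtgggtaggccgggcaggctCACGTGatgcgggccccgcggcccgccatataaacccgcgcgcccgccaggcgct
SREBF2: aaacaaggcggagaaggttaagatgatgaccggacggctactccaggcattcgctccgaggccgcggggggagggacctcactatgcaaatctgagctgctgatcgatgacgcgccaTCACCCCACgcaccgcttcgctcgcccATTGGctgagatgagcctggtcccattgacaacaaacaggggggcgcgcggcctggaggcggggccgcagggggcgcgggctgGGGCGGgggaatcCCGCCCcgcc
ABCA1: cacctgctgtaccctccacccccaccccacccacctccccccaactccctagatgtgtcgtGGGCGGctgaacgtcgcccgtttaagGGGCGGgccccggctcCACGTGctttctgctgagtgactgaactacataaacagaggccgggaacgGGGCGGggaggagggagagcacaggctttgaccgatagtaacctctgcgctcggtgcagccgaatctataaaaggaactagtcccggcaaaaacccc

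The motifs were TCACNCCAC, a form of the sterol regulatory element bound by SREBPs, CCAAT, the site of the SREBP partner NF-Y, GGGCGG, a GC box of the kind bound by SP1, and CACGTG, an E-box. All were searched on both strands, and neighbouring matches may overlap, as a pair of GC boxes does in INSIG1. The SREBF2 promoter held the sterol element, whose first base lies at position -133 from the start site, and a CCAAT box at -106. FDPS held 3 CCAAT boxes, at -176, -122 and -51, and INSIG1 held 1 at -170 with 5 GC boxes and an E-box. ABCA1 held no CCAAT box, 3 GC boxes and an E-box at -147. Sites of the LXR receptors were not searched. Of the 27 genes, 24 had at least 1 promoter in the RefSeq table; ACAT2, FDFT1 and SQLE had no entry there. Among these 24 genes, 17 held CCAAT upstream of at least 1 of their start sites (70.8%), against 37.0% of the 27305 genes in the table. Among the 15 synthesis enzymes with an entry, 13 held it (86.7%). GC boxes occurred in 23 of the 24, against 46.2% of all genes, and the sterol element in this exact form in 1 of the 24, against 1.09% of all genes. E-boxes occurred in 4 of the 24 (16.7%), against 7.73% of all genes. The shares over all genes were not limited to genes expressed in these cells. By single promoters, 32.0% of the 35116 in the table held CCAAT, 42.6% a GC box, 0.883% the sterol element and 6.34% the E-box. A match describes these letters only, and no binding was measured.

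The 27 transcripts spanned a wide range of levels, compared here per kilobase of exon because longer transcripts collect more counts. NPC1, which exports cholesterol from lysosomes, had the highest level in both groups, with 50.8 ± 2.02 CPM per kilobase with RSM3 and 44.9 ± 0.904 CPM per kilobase in Control (mean ± SD, n = 3 each, as elsewhere below). DHCR7, which catalyses a last step of cholesterol synthesis, and SQLE, which epoxidises squalene, followed at 39.8 ± 4.07 and 38.2 ± 2.59 CPM per kilobase with RSM3, and 35.1 ± 2.29 and 34.0 ± 2.02 CPM per kilobase in Control. These 2 neighbours did not differ beyond their spread. The lowest levels were those of HSD17B7, a sterol ketoreductase, at 2.69 ± 0.364 CPM per kilobase with RSM3 and 2.66 ± 0.141 CPM per kilobase in Control, and of ABCA1, at 0.833 ± 0.207 CPM per kilobase with RSM3 and 1.45 ± 0.0622 CPM per kilobase in Control. ACAT2 and MSMO1 each moved 5 places in this order, ACAT2 standing 8th with RSM3 and 13th in Control and MSMO1 15th with RSM3 and 10th in Control.

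**Figure D1:**
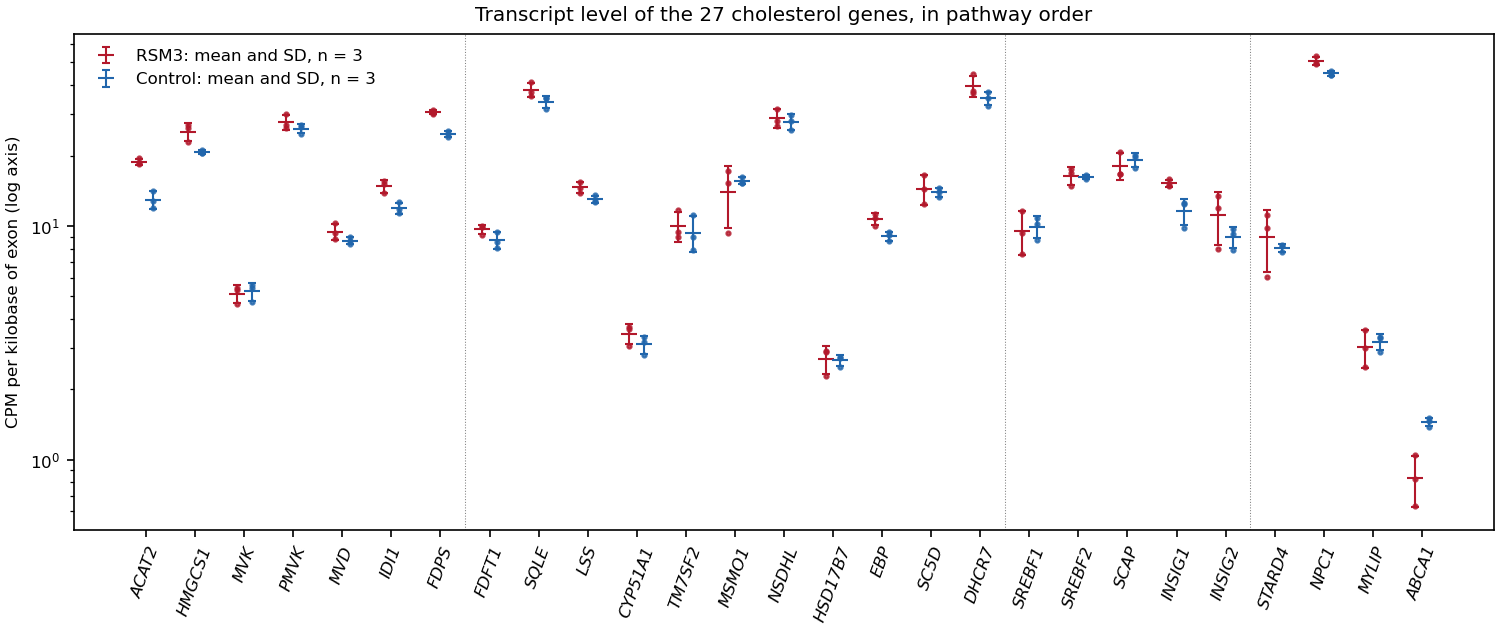
Level of each of the 27 genes in CPM per kilobase of exon on a log axis, in the order of the pathway, with RSM3 left of Control for each gene; points are libraries, and bars show the mean and SD of 3. NPC1 is highest and ABCA1 lowest in both groups, and ABCA1 and ACAT2 show clear gaps between the groups.

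With RSM3, 2 of the 27 genes rose and 1 fell. ACAT2 and FDPS, both of the mevalonate pathway, were higher, and the efflux gene ABCA1 was lower, while 24 genes did not pass (quasi-likelihood test of edgeR with p adjusted by Benjamini and Hochberg, threshold 0.05). Over all 15773 genes tested, 4.2% were called, 3.09% higher and 1.1% lower, so the 3 calls are 11.1% of the 27 genes, 7.41% higher and 3.70% lower. A fold change above 0 on the log2 scale was seen for 21 of the 27 genes (77.8%), against 49.0% of all genes. The median log2 fold change was 0.15 for the 27 genes and -0.0048 for all genes tested. Scaling by library total in place of TMM moved the median of all genes to -0.06, made rises 54.8% of all calls in place of 73.7%, and left 17 of the 27 genes above 0. The 3 RSM3 values lay above all 3 Control values in 9 of the 27 genes (33.3%), against 12.8% of all genes, and below them in 1 gene (3.70%), against 11.1% of all genes. Because the 27 genes were chosen with earlier results of these data known, these shares are descriptive only.

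**Figure D2:**
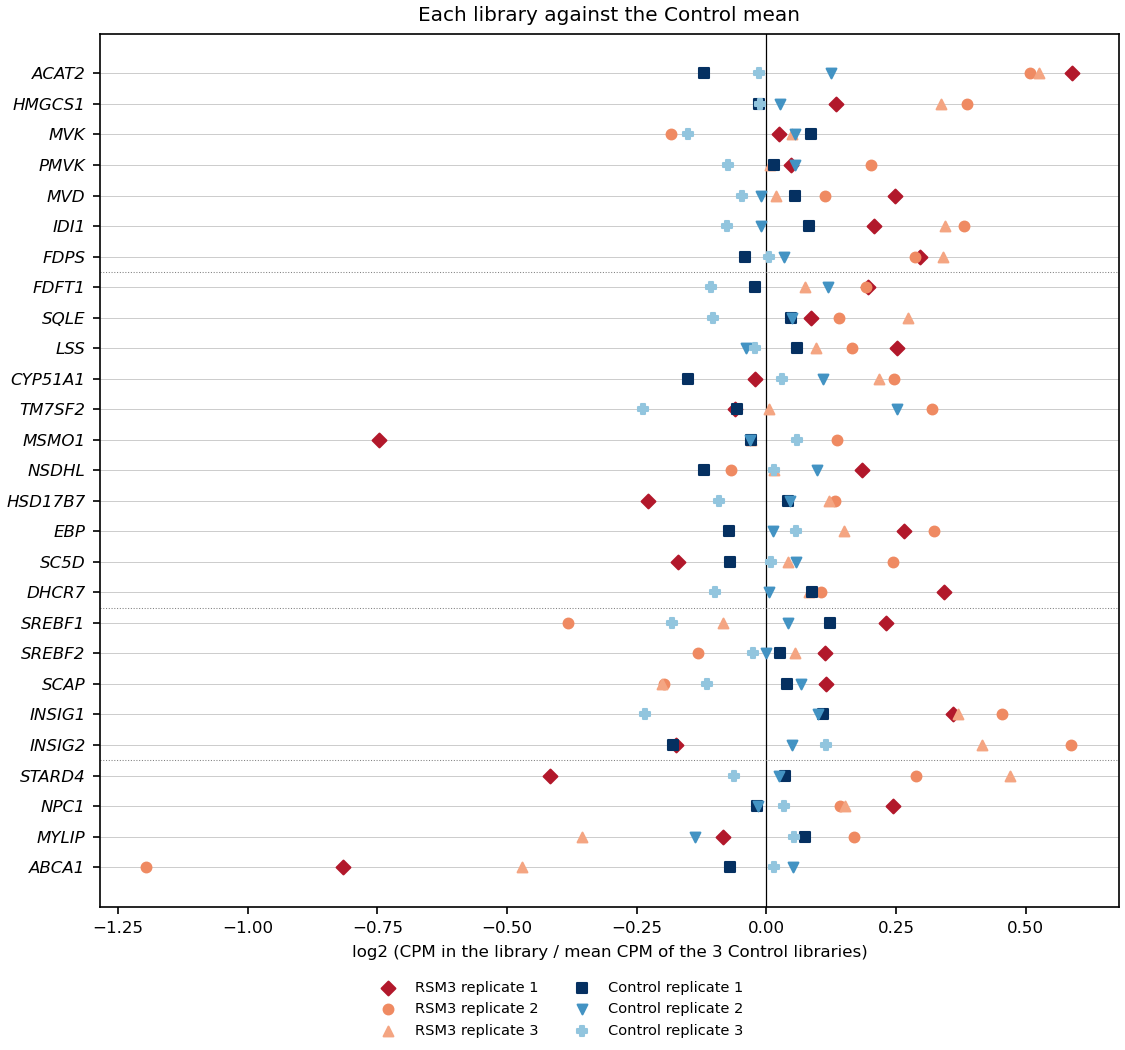
Level of each gene in each library as the log2 ratio to the mean of the Control libraries, with genes in pathway order from top to bottom. All RSM3 libraries lie right of all Control libraries for ACAT2, HMGCS1, IDI1, FDPS and INSIG1 among others and left of them for ABCA1, while RSM3 replicate 1 lies far left for MSMO1 and STARD4.

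Of the 7 mevalonate pathway enzymes, 2 rose and 5 did not pass, with a median log2 fold change of 0.29. ACAT2 is the cytosolic thiolase that joins acetyl-CoA units at the entry of the pathway. It held 83.8, 79.1 and 80.1 CPM in RSM3 replicates 1, 2 and 3, against 51.2, 60.7 and 55.1 CPM in Control replicates 1, 2 and 3. The groups were well apart, with the lowest RSM3 library above the highest Control library. The gene (GRCh38 chromosome 6, 159760328 to 159779055 in GENCODE) rose 1.46-fold, or 0.54 on the log2 scale with an SE of 0.09 (edgeR adjusted p = 0.00400), and it passed in all 15 other settings tried. Values after ± beside a log2 fold change are SEs throughout. ACAT2 shares 397 exonic bases with TCP1, a chaperonin gene on the opposite strand, and no source used here gives the strand setting of the counting. TCP1 held 241 to 251 CPM with RSM3 and 248 to 265 CPM in Control (log2 fold change -0.07 ± 0.07, edgeR adjusted p = 0.662).

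FDPS encodes farnesyl diphosphate synthase, which makes the isoprenoid that leads to squalene, and its promoter is the first of those printed. It held 113, 112 and 117 CPM in the RSM3 libraries and 89.5, 94.3 and 92.3 CPM in the Control libraries. The spread within each group was a few CPM and the groups did not overlap. FDPS (chromosome 1, 155308748 to 155320666) rose by 0.31 ± 0.08 on the log2 scale (edgeR adjusted p = 0.0372). Its call was lost in 7 of the 15 other settings. The edgeR adjusted p was 0.0896 to 0.203 when RSM3 replicate 2 or 3 or any Control library was left out, with log2 fold changes of 0.29 to 0.33 across the 6 fits without 1 library. The adjusted p was also 0.103 with scaling by library total and 0.0568 with the replicate number as a block. FDPS shares 693 exonic bases with RUSC1-AS1 on the opposite strand, which averaged 76.3 counts with RSM3 and 109 in Control.

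The enzymes on either side of mevalonate had similar values without passing. HMGCS1, which makes HMG-CoA, held 107, 127 and 123 CPM with RSM3 and 96.4, 99.2 and 96.6 CPM in Control. All RSM3 libraries were above all Control libraries, replicate 1 by the least, at 0.29 ± 0.08 on the log2 scale (edgeR adjusted p = 0.0780). IDI1, which isomerises isopentenyl diphosphate, held 59.8, 67.4 and 65.7 CPM with RSM3 and 54.8, 51.4 and 49.1 CPM in Control. Here too the groups did not overlap (log2 fold change 0.31 ± 0.09, edgeR adjusted p = 0.0707). The kinases MVK and PMVK and the decarboxylase MVD, which act in between, had overlapping groups. Their log2 fold changes were -0.03, 0.09 and 0.13, with edgeR adjusted p of 0.536 to 0.914. Summed over the 7 enzymes, the level was 481, 498 and 495 CPM in the RSM3 libraries, against 404, 416 and 395 CPM in the Control libraries, a ratio of means of 1.21.

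None of the 11 squalene and sterol enzymes passed in the edgeR test with all 6 libraries and without correction for GC content and length. In that test 1 of the 11 had an unadjusted p under 0.05, against 2804 of all 15773 genes. The log2 fold changes of the 11 enzymes ran from -0.16 to 0.25 with a median of 0.15, and 10 of the 11 were above 0. EBP, a sterol isomerase, had the smallest p. It held 26.1, 27.2 and 24.1 CPM with RSM3 and 20.7, 21.9 and 22.6 CPM in Control, with no overlap (log2 fold change 0.25 ± 0.11, edgeR adjusted p = 0.237). LSS, which folds squalene epoxide into lanosterol, held 112, 105 and 100.4 CPM with RSM3 and 97.9, 91.4 and 92.5 CPM in Control, with no overlap (log2 fold change 0.17 ± 0.08, edgeR adjusted p = 0.281). SQLE held 155, 161 and 177 CPM with RSM3 and 151, 152 and 136 CPM in Control, where the lowest RSM3 library was just above the highest Control library (log2 fold change 0.17 ± 0.08, edgeR adjusted p = 0.310). DHCR7 held 185, 157 and 154 CPM with RSM3 and 155, 146 and 136 CPM in Control, overlapping by a narrow margin (log2 fold change 0.18 ± 0.09, edgeR adjusted p = 0.322).

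The other 7 enzymes of this segment overlapped between groups. FDFT1, which makes squalene, CYP51A1, a lanosterol demethylase, TM7SF2, a sterol reductase, NSDHL, a sterol dehydrogenase, HSD17B7 and SC5D, a sterol desaturase, had log2 fold changes of 0.02 to 0.16. MSMO1, a sterol oxidase, was the exception in sign. It held 26.9, 49.6 and 44.2 CPM in RSM3 replicates 1, 2 and 3, against 44.2, 44.2 and 47.0 CPM in Control, so that replicate 1 alone was low (log2 fold change -0.16 ± 0.17, edgeR adjusted p = 0.686). Without that library the log2 fold change was 0.06 ± 0.08 (edgeR adjusted p = 0.731). CYP51A1 shares 2844 exonic bases with an annotated gene on its own strand that drew 0 counts, and HSD17B7 has 2 pseudogenes that drew a mean of 40.8 counts per library, 19.5% of its own, so the values of both are uncertain. Summed over the 11 enzymes, the level was 742, 764 and 742 CPM with RSM3, against 692, 708 and 661 CPM in Control, a ratio of means of 1.09.

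Among the SREBP factors and their regulators in the endoplasmic reticulum, none of 5 passed. INSIG1, which retains SCAP and is itself a textbook SREBP target, came closest. It held 54.2, 57.9 and 54.6 CPM in the RSM3 libraries and 45.5, 45.3 and 35.9 CPM in the Control libraries. The groups did not overlap, and Control replicate 3 was the lowest library. The log2 fold change was 0.40 ± 0.10 (edgeR adjusted p = 0.0526). It was under the threshold with DESeq2, limma voom, no filter, the replicate block, the GC and length correction with or without that block, and without RSM3 replicate 1, and over it in the other 8 settings. INSIG2, a related gene whose product also retains SCAP, held 31.4, 53.2 and 47.2 CPM with RSM3 and 31.3, 36.6 and 38.3 CPM in Control. Replicate 1 fell among the Control values and the other 2 lay above them (log2 fold change 0.31 ± 0.16, edgeR adjusted p = 0.333).

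The factors themselves did not separate the groups. SREBF2, which encodes SREBP-2, the factor most tied to cholesterol genes, held 132, 112 and 127 CPM with RSM3 and 125, 122 and 120.4 CPM in Control (log2 fold change 0.02 ± 0.08, edgeR adjusted p = 0.953). SREBF1, which encodes the SREBP-1 forms more tied to fatty acid synthesis, held 93.3, 61.1 and 75.2 CPM with RSM3 and 86.7, 82.0 and 70.1 CPM in Control. Its RSM3 values were spread on both sides of the Control range (log2 fold change -0.06 ± 0.13, edgeR adjusted p = 0.876). SCAP held 134, 108 and 107 CPM with RSM3 and 127, 129 and 114 CPM in Control (log2 fold change -0.09 ± 0.10, edgeR adjusted p = 0.714). RSM3 replicate 1 was the highest library for all of these 3 genes. SREBP activity depends on cleavage of the proteins, which RNA levels do not measure.

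ABCA1, the transporter that loads cholesterol onto apolipoproteins at the cell surface, was the 1 gene of the 27 that fell. It held 9.33, 7.17 and 11.9 CPM in RSM3 replicates 1, 2 and 3, against 15.7, 17.0 and 16.6 CPM in Control replicates 1, 2 and 3. The Control libraries were tightly grouped, the RSM3 libraries were spread, and the highest RSM3 library was below the lowest Control library. ABCA1 (chromosome 9, 104781002 to 104928237) fell by 0.80 on the log2 scale, with an SE of 0.17, to 0.575 of the Control level (edgeR adjusted p = 0.0170). It kept its direction in all 15 other settings. The adjusted p was 0.0602 to 0.0968 without RSM3 replicate 2 or without any 1 of the Control libraries, with log2 fold changes of -0.63 to -0.83 there.

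The other genes of transport and uptake did not pass. NPC1 held 537, 500.0 and 504 CPM with RSM3 and 448, 448 and 464 CPM in Control, with no overlap (log2 fold change 0.18 ± 0.07, edgeR adjusted p = 0.200). STARD4, a carrier of sterol between membranes, held 34.2, 55.8 and 63.4 CPM with RSM3 and 46.9, 46.5 and 43.8 CPM in Control. Replicate 1 lay below all Control libraries and the other 2 above all of them (log2 fold change 0.17 ± 0.17, edgeR adjusted p = 0.677). MYLIP, whose product sends lipoprotein receptors for degradation, is driven by LXR like ABCA1. It held 9.11, 10.9 and 7.54 CPM with RSM3 and 10.2, 8.77 and 10.0 CPM in Control, with overlapping groups (log2 fold change -0.07 ± 0.16, edgeR adjusted p = 0.872).

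Several of the 27 genes also share exonic bases with a gene on the opposite strand, from which unstranded counting could not tell them apart. IDI1 shares 643 with IDI2-AS1, MVK 306 with MMAB, NPC1 604 with RMC1, SREBF1 556 with RAI1, SREBF2 280 with SREBF2-AS1 and STARD4 124 with STARD4-AS1. None of these partners was called.

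The number of these genes that passed changed with the libraries and settings used. Without RSM3 replicate 1, 9 of the 27 rose and 2 fell, 40.7% of the genes, against 14.6% of all genes tested in that fit (8.83% higher and 5.77% lower). HMGCS1, IDI1, INSIG1, INSIG2, SQLE, NPC1 and STARD4 then joined ACAT2 and FDPS among the rises, and SCAP joined ABCA1 among the falls. In that fit, which compares 2 RSM3 libraries with 3 Control libraries, the log2 fold change of INSIG2 was 0.51 ± 0.09 (edgeR adjusted p = 0.000208), that of STARD4 0.38 ± 0.08 (edgeR adjusted p = 0.00107) and that of HMGCS1 0.36 ± 0.06 (edgeR adjusted p = 6.06e-05). SCAP was at -0.20 ± 0.06 (edgeR adjusted p = 0.0354). With all 6 libraries but trends of level with GC content and transcript length removed per library, 8 rose and 1 fell, 33.3% of the genes, against 10.3% of all genes (7.5% higher and 2.82% lower). ACAT2, FDPS, HMGCS1, IDI1, INSIG1, DHCR7, LSS and NPC1 rose there and ABCA1 fell. When RSM3 replicate 2, or any 1 Control library, was left out, ACAT2 was the 1 gene called, and without RSM3 replicate 3 ACAT2 and ABCA1 were.

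**Figure D3:**
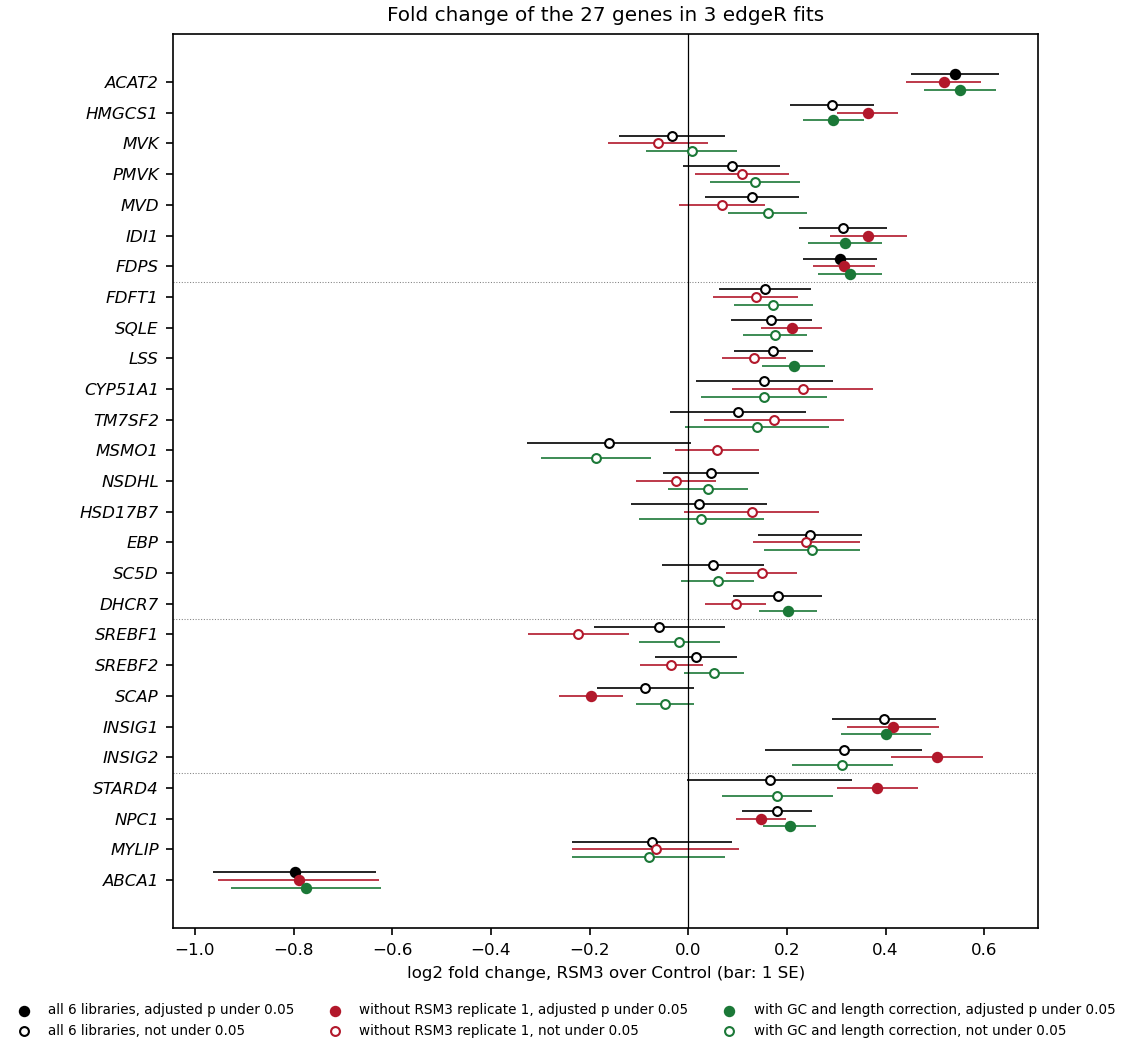
Log2 fold change of RSM3 over Control with its SE for the 27 genes in 3 edgeR fits; filled points have an adjusted p under 0.05. ACAT2, FDPS and ABCA1 are filled in all 3 fits, and MSMO1, STARD4 and INSIG2 move furthest to the right when RSM3 replicate 1 is left out.

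The position of RSM3 replicate 1 among these genes moved with their base composition. The 8 genes with a GC content under 45% (HMGCS1, IDI1, CYP51A1, MSMO1, HSD17B7, SC5D, INSIG2 and STARD4) had a median log2 deviation from the 6-library mean of -0.21 in RSM3 replicate 1, against 0.23 and 0.17 in RSM3 replicates 2 and 3 and -0.08 to 0.00 in the Control libraries. The 19 genes with a higher GC content had a median deviation of 0.14 in RSM3 replicate 1, 0.06 and -0.00 in RSM3 replicates 2 and 3, and -0.12 to -0.03 in the Control libraries. Over the 27 genes, the Spearman correlation of the deviation with GC content was 0.661 in RSM3 replicate 1, -0.522 and -0.611 in RSM3 replicates 2 and 3, and -0.278 to 0.212 in the Control libraries. The points of a library share its depth and preparation, and the part of base composition in the fold changes was not tested beyond the correction above.

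**Figure D4:**
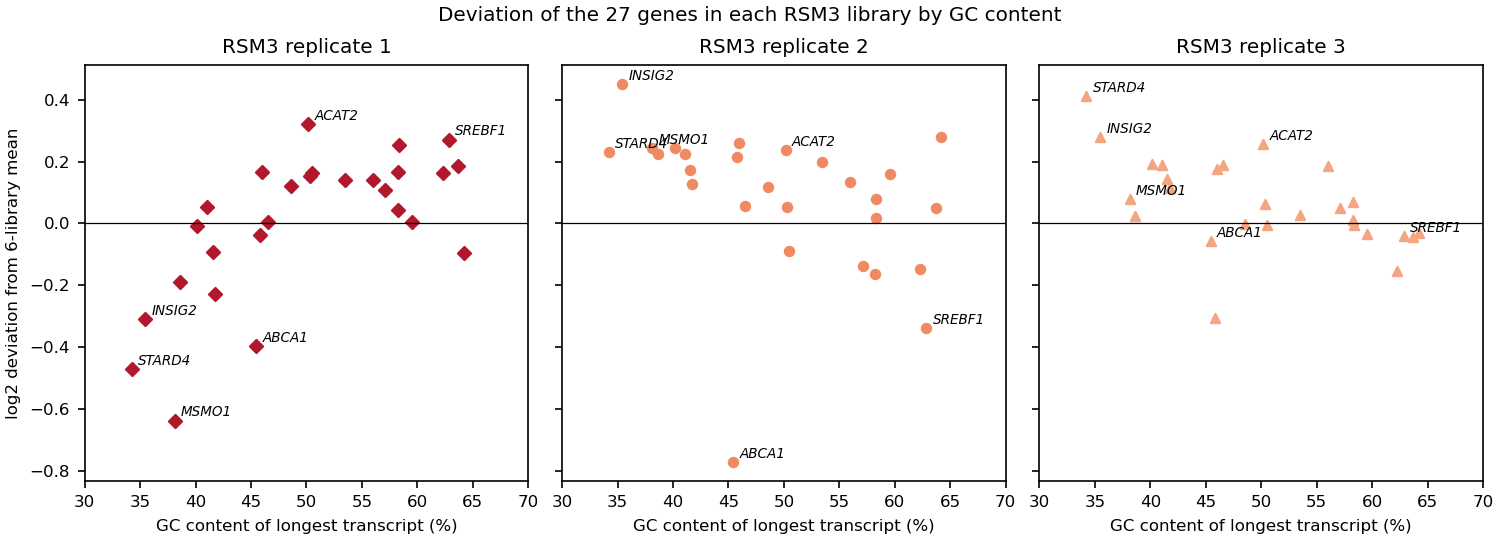
Log2 deviation of the 27 genes from their 6-library mean in each RSM3 library, against the GC content of the longest transcript. The points rise with GC content in RSM3 replicate 1 and fall with it in replicates 2 and 3, with MSMO1, STARD4, ABCA1 and INSIG2 lowest in replicate 1.

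Of 55 further genes of the pathway, 52 passed the expression filter; 2 rose (3.85%, against 3.09% of all genes) and none fell (against 1.1% of all genes), shares close to those over all genes. With edgeR, 7 of the 52 had an unadjusted p under 0.05, against 2804 of all 15773 genes tested. DESeq2 also called 2 of the 52 higher and none lower. The median log2 fold change of the 52 was -0.00063, and 26 of them were above 0. NPC2, the soluble partner that hands cholesterol to NPC1 in the lysosome, rose to 72.8 ± 7.58 CPM with RSM3, against 54.7 ± 2.03 CPM in Control (log2 fold change 0.41 ± 0.09, edgeR adjusted p = 0.0274). NCEH1, a hydrolase of cholesteryl esters, rose to 206 ± 22.1 CPM with RSM3, against 156 ± 6.27 CPM in Control (log2 fold change 0.40 ± 0.09, edgeR adjusted p = 0.0218). Neither was called with scaling by library total, without RSM3 replicate 2 or without any 1 Control library, and NCEH1 was also lost without RSM3 replicate 3.

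None of 14 further synthesis and isoprenoid genes passed (edgeR, 2 with an unadjusted p under 0.05, against 2804 of all 15773 genes). The smallest p among them belonged to ERG28, a scaffold of the sterol enzymes, and COQ2, of coenzyme Q synthesis, with log2 fold changes of 0.29 ± 0.10 and 0.25 ± 0.11 (edgeR adjusted p = 0.141 and 0.254). None of 11 genes of SREBP processing and sterol-regulated degradation passed (edgeR, none with an unadjusted p under 0.05). SPRING1, needed for the protease that cleaves SREBPs, and PAQR3, which holds SCAP in the Golgi, had the smallest p there, with log2 fold changes of -0.16 ± 0.08 and 0.25 ± 0.13 (edgeR adjusted p = 0.320 and 0.360). Of 15 genes of uptake and transport NPC2 was the 1 call, and of 12 tested genes of LXR, efflux and esterification NCEH1 was. ABCG1, another LXR-driven efflux transporter, was named after its values were seen. It held 9.80 ± 1.90 CPM with RSM3 and 13.2 ± 1.05 CPM in Control, with no overlap. Its log2 fold change was -0.43 ± 0.16 (edgeR adjusted p = 0.154, and 0.0735 with the GC and length correction). ABCG1 was called in no setting but the fit without RSM3 replicate 1 (edgeR adjusted p = 0.00559). In that fit 6 of the further genes rose and 3 fell, the other falls being LRP1 and GRAMD1B. SMPDL3A, LPCAT3, PLTP and APOE, from the list of LXR, efflux and esterification genes, overlapped between groups. Their log2 fold changes were -0.16, -0.10, 0.10 and 0.39. Their edgeR adjusted p was 0.572 to 0.767. Of the 12 tested genes of that list, 5 had a log2 fold change above 0, and the median was -0.03.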

How the data were processed

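Per the labels' protocols, poly(A) RNA of 6 PC3 samples was made into dUTP strand-marked libraries and sequenced as paired reads. Per the submitters' processing notes, the build was hg38 and the tools included STAR (2.7.1a), fastp, DESeq2 and featureCounts, without roles; no source used here gives the annotation, the strand setting or the handling of multiply mapped reads. The authors deposited 1 table of raw read counts per gene, with 1 column per sample. Groups and replicate numbers came from the sample titles.

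Genes were filtered with filterByExpr (minimum count 10) and the 2 groups were tested with edgeR (4.0.16; R 4.3.3), using quasi-likelihood F-tests, robust dispersions, TMM factors and no covariate, with Benjamini-Hochberg adjustment over all 15773 genes. SE is the log2 fold change divided by the square root of F. CPM values are TMM-scaled. Exonic length and the GC content of the longest transcript came from GENCODE 29 (GRCh38), which covered 99.0% of genes tested; promoters came from RefSeq. The GC and length correction entered loess curves (span 0.5, degree 2) as offsets. The other alternatives were DESeq2 (1.42.0) and its size factors, limma voom (limma 3.58.1), library totals, 2 other filters, the replicate number as a block and leaving out each library. Scripts were tested on simulated data. Replicates of a group differed by more than sampling noise (chi-square per degree of freedom 3.3 to 19.6).

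The genes and the further lists were chosen with earlier results of these data known. Full values are given for the 12 of the 27 genes with the smallest p, and of the further lists for called genes or, where none was called, the 2 with the smallest p. Other genes with full values were named after their values had been seen. Some marker genes are not reported here.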

Additional observations from a re-analysis of the deposited data

How the results depend on the processing

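Of 405 log2 fold changes of the 27 genes under the 15 alternatives, 23 changed sign, the lowest adjusted p among them being 0.731. The 10 genes concerned had log2 fold changes of -0.16 to 0.17 with all libraries in the fit. With library totals the log2 fold changes of NSDHL, HSD17B7, SC5D and SREBF2 were -0.013, -0.032, -0.0035 and -0.044. With the GC and length correction that of MVK was 0.0068, and 0.0057 with the replicate block added. Leaving out 1 library at a time gave -0.10 to 0.040 for MVK, -0.023 to 0.25 for TM7SF2, -0.34 to 0.058 for MSMO1, -0.025 to 0.10 for NSDHL, -0.036 to 0.13 for HSD17B7, -0.057 to 0.15 for SC5D, -0.22 to 0.084 for SREBF1, -0.035 to 0.087 for SREBF2, -0.015 to 0.38 for STARD4 and -0.21 to 0.054 for MYLIP. The cause was not tested.

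Of the 27 genes, 1 rose with library totals, 5 with DESeq2, 8 with the GC and length correction and 6 when the replicate block was added to it, in place of 2; 1 to 9 rose and 0 to 2 fell without single libraries. Their median log2 fold change was 0.10 with library totals and 0.11 to 0.17 without single libraries. Of the further pathway genes, 0 rose with library totals and 4 with the GC and length correction, in place of 2. Without single libraries 0 to 6 of them rose and 0 to 3 fell. Both highest numbers came without RSM3 replicate 1, where 8.83% of all genes rose and 5.77% fell. Over all 15773 genes tested, 488 rose and 174 fell. With library totals 308 of these genes rose, and with DESeq2 627 rose and 269 fell. With the GC and length correction 1183 rose and 445 fell, and with the block added 1052 rose and 403 fell. Without a filter 392 of 32250 genes fell. Without single libraries 177 to 1447 rose and 37 to 946 fell, of 16123 to 16392 genes tested. The cause was not tested. The replicate numbers share no stated source, and same-numbered libraries had deviations that correlated at 0.0302, -0.0249 and 0.0444, so they were not taken as pairs. With the replicate block alone 467 genes rose and 186 fell, with INSIG1 called and FDPS not. The number of libraries, 3 per group, limits all of these calls.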
